A study of Mus musculus with 786 samples.

Results

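Mitochondrial ribosomal protein genes were followed through single cells and sorted populations of early mouse blood formation. The members were all genes whose symbol starts with Mrpl or Mrps followed by a digit: 76 of the 21664 genes in the single-cell tables, 47 Mrpl and 29 Mrps, and 75 of the 18855 genes in the bulk table, which has no row for Mrpl42. The members lie on 17 chromosomes, and none of them is on X or Y. The choice used names only and no measured value.

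The mitochondrial ribosome makes the proteins encoded by mitochondrial DNA, which are core subunits of the respiratory chain and of ATP synthase. All of its proteins are encoded in the nucleus, made in the cytosol and imported, and they assemble with mitochondrial ribosomal RNAs into a small subunit that decodes mRNA and a large subunit that forms peptide bonds. Mrps and Mrpl stand for small and large subunit, although Mrps18a and Mrps30 were later placed in the large subunit. Blood stem cells are known for low mitochondrial activity relative to their progeny.

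The study sequenced RNA from bone marrow of C57BL/6 mice aged 6 to 8 weeks, as single cells in 96-well plates by Smart-seq and as bulk libraries of 1000 sorted cells. Bled MPP1 (1 plate) were the first multipotent precursors, sorted as CD48- CD150+ CD135- CD34+ from mice that had been bled, and MPP1 (2 plates) were the same gate from normal mice. Bled HSC (1 plate) were haematopoietic stem cells, sorted as CD48- CD150+ CD135- CD34- from bled mice, and HSC (3 plates) were the same gate from normal mice. The third HSC plate carried an RNA spike-in, and its growth note, like that of the bled plates, names normal and bled mice together. The bulk set held 18 sorted populations with 1 library each; the label of the bulk HSC library gives the CD34+ marker string of bulk MPP1. The labels do not say whether the cells of 1 plate came from 1 mouse or from several.

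Values are FPKM, fragment counts scaled by transcript length and by the mapped fragments of the library. A gene was called detected at FPKM 1 or more, and a cell was used if its well was labelled as holding 1 cell and at least 1000 genes were detected. This left 373 of 460 such wells: 50 cells on the bled MPP1 plate, 51 and 48 for MPP1 (plates 1 and 2), 48 for bled HSC, and 50, 53 and 73 for HSC (plates 1, 2 and 3). The median number of genes detected per cell was 3046.5 for bled MPP1, 2535 and 2520.5 for MPP1, 2443 for bled HSC, and 2157.5, 2594 and 1969 for HSC. Summed markers of stem cells were at 541 and 679 FPKM on the MPP1 plates and at 1087, 1038 and 828 FPKM on the HSC plates. Of the 150 wells labelled as holding no cell, 20 nevertheless reached 1000 genes. The cut at 1000 genes alone therefore does not tell wells with a cell from wells without. In 4 of the 150 wells more than 10 members were detected, so some labels of cell number may be wrong.

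Promoters of members that many cells express are shown because a few short motifs recur in them more often than in promoters at large. RefSeq promoters (build GRCm38.p6, 250 bases before to 50 after the gene's start) were matched for 67 of the 76 members and compared with those of 27025 genes, reading both strands. The ETS-type motif CCGGAAGT was in 12 of 67 member promoters (17.9%) and in 4.31% of all promoters. The YY1-type motif AAGATGGC was in 12 of 67 (17.9%) and in 3.19% of all. The E-box CACGTG was in 5 of 67 (7.46%) against 8.09% of all, and TATAAA in 5 of 67 (7.46%) against 15.7%. No motif contains another. The ETS-type or the YY1-type motif was in 23 members (34.3%; all promoters 7.30%), and 1 of them held both. A match describes letters, not a bound site. Shown are the pair of members with the ETS-type motif and the pair with the YY1-type motif that were detected in the largest share of cells, 5′ to 3′ on the gene's strand, with the motif in capitals (on the opposite strand in Mrpl52 and Mrpl36).
Mrpl33 (chr5:31613701-31614000, plus strand): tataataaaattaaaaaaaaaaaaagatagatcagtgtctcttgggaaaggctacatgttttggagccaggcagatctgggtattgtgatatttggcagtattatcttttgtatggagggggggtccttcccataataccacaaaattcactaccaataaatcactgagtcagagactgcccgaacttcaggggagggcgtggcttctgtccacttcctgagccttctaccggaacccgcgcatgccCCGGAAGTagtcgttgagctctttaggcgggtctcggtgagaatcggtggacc
Mrpl52 (chr14:54426659-54426958, plus strand): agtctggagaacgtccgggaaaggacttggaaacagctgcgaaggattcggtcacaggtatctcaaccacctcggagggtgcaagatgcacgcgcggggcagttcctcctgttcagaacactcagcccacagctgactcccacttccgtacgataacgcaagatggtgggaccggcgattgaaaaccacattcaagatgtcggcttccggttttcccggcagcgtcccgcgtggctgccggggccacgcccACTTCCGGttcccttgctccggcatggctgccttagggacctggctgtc
Mrpl42 (chr10:95501900-95502199, minus strand): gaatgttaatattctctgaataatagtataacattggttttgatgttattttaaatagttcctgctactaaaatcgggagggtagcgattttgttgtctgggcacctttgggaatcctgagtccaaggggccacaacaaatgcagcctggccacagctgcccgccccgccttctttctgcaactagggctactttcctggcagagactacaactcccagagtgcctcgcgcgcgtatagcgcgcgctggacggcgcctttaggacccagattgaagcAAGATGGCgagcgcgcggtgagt
Mrpl36 (chr13:73330759-73331058, plus strand): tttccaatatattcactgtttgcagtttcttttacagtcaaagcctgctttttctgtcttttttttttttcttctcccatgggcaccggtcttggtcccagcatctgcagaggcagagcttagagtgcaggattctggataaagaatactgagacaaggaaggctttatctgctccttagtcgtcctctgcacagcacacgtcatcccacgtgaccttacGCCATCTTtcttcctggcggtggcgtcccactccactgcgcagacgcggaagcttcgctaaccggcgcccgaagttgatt
The motif began 3 bases before the gene's start in Mrpl33, at base 2 after it in Mrpl52, at base 28 after it in Mrpl42 and 30 bases before it in Mrpl36. Members with the ETS-type motif were detected in a median of 32.0% of cells and those without it in 29.5%. For the YY1-type motif these medians were 29.8% and 29.5%.

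A single cell showed only part of the mitochondrial ribosome. The median cell had 37.5 of 76 members detected on the bled MPP1 plate, 23 and 25 in MPP1 (plates 1 and 2), 26 in bled HSC, and 24, 26 and 16 on HSC plates 1, 2 and 3. Single cells ranged from 3 to 63 members, and all 76 were detected in at least 1 cell of every plate. In wells labelled with no cell the plate medians lay between 0.5 and 3 members, with up to 56 in 1 well of MPP1 plate 2. The number of members detected followed the number of genes detected in the same cell, with Spearman correlations between 0.77 and 0.94 within the plates (48 to 73 cells, which share a plate). Per 1000 detected genes, the median cell had 11.4 members on the bled MPP1 plate, 9.17 and 9.18 in MPP1, 10.0 in bled HSC, and 10.7, 9.37 and 8.42 in HSC.

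**Figure D1:**
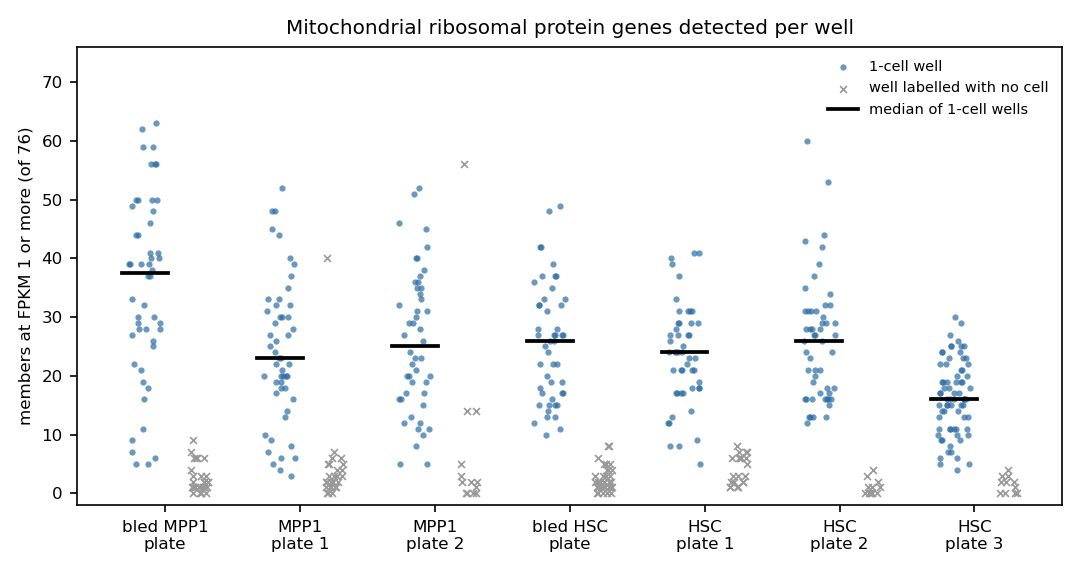
Number of the 76 members at FPKM 1 or more (vertical axis) in each 1-cell well (blue points) and each well labelled with no cell (grey crosses), by plate, with the median of the 1-cell wells as a black line. The bled MPP1 plate has the highest median, 37.5, and HSC plate 3 the lowest, 16.

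Other protein genes of the same machineries gave the scale. The mean share of cells in which a member was detected was 46.2% on the bled MPP1 plate, 31.7% and 34.0% in MPP1, 33.7% in bled HSC, and 30.9%, 34.0% and 21.5% in HSC. Oxidative phosphorylation subunits, the proteins that work beside the products of this ribosome, were detected in 78.2%, 62.7%, 67.2%, 70.3%, 64.9%, 66.6% and 46.7% of cells on the same plates in the same order. Cytosolic ribosomal protein genes were detected in 90.8% to 97.5% of cells. Members were thus seen in fewer cells than either group, on all 7 plates. Over all genes listed, the mean share was between 8.9% and 14.0%.

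The summed level of the members was close to 1 percent of a cell's total FPKM. It averaged 3210 FPKM per cell on the bled MPP1 plate, 2318 and 2251 in MPP1, 2863 in bled HSC, and 3000, 1955 and 1975 in HSC. As a mean share of the cell's total this was 1.07%, 0.900% and 0.829%, 0.988%, and 1.01%, 0.934% and 0.856%, in the same order. Single cells spread widely around these means, from 114 to 8938 FPKM on the bled MPP1 plate and from 31.4 to 7659 FPKM on HSC plate 1. In wells with no cell the plate medians were 1.72 to 740 FPKM, but on HSC plate 1 the mean of such wells was 4920 FPKM, above that of its cells.

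Mrpl and Mrps genes stood at both the high and the low end of the list of levels. Mrpl33 was highest, with plate means of 173 FPKM in bled MPP1, 141 and 115 in MPP1, 93.4 in bled HSC, and 186, 102 and 82.5 in HSC. Mrpl18, which in the assembled ribosome lies at the central protuberance, had 145 FPKM in bled MPP1, 85.4 and 111 in MPP1, 114 in bled HSC, and 136, 146 and 63.8 in HSC. Mrpl42, Mrps18c, Mrpl30, Mrpl52, Mrpl24 and Mrps21 followed, with means over the 7 plates of 107, 98.7, 92.0, 87.9, 84.1 and 82.5 FPKM. At the low end stood Mrpl19 (4.82 FPKM), Mrpl21 (5.51), Mrps30 (5.74), Mrps24 (6.41) and Mrpl41 (6.54). The span between the highest and the lowest member is wider than the spread of either over plates: Mrpl33 lay between 82.5 and 186 FPKM, and Mrpl19 between 1.58 and 7.37 FPKM.

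How many cells held a member was not the same as how high it was. Mrps33, a small-subunit protein, was the most widely detected, in 72.0% of bled MPP1 cells, 64.7% and 68.8% of MPP1 cells, 68.8% of bled HSC cells, and 66.0%, 67.9% and 54.8% of HSC cells. Its plate means nevertheless lay only between 34.5 and 48.8 FPKM. Mrpl33, Mrpl52, Mrps14 and Mrpl42 came next, with mean shares over plates of 66.0%, 63.3%, 62.0% and 59.1%. At the other end, Mrps2, a small-subunit protein with a relative in bacteria, was detected in 9.77% of cells on average, but at 124 FPKM in the cells that had it.

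**Figure D2:**
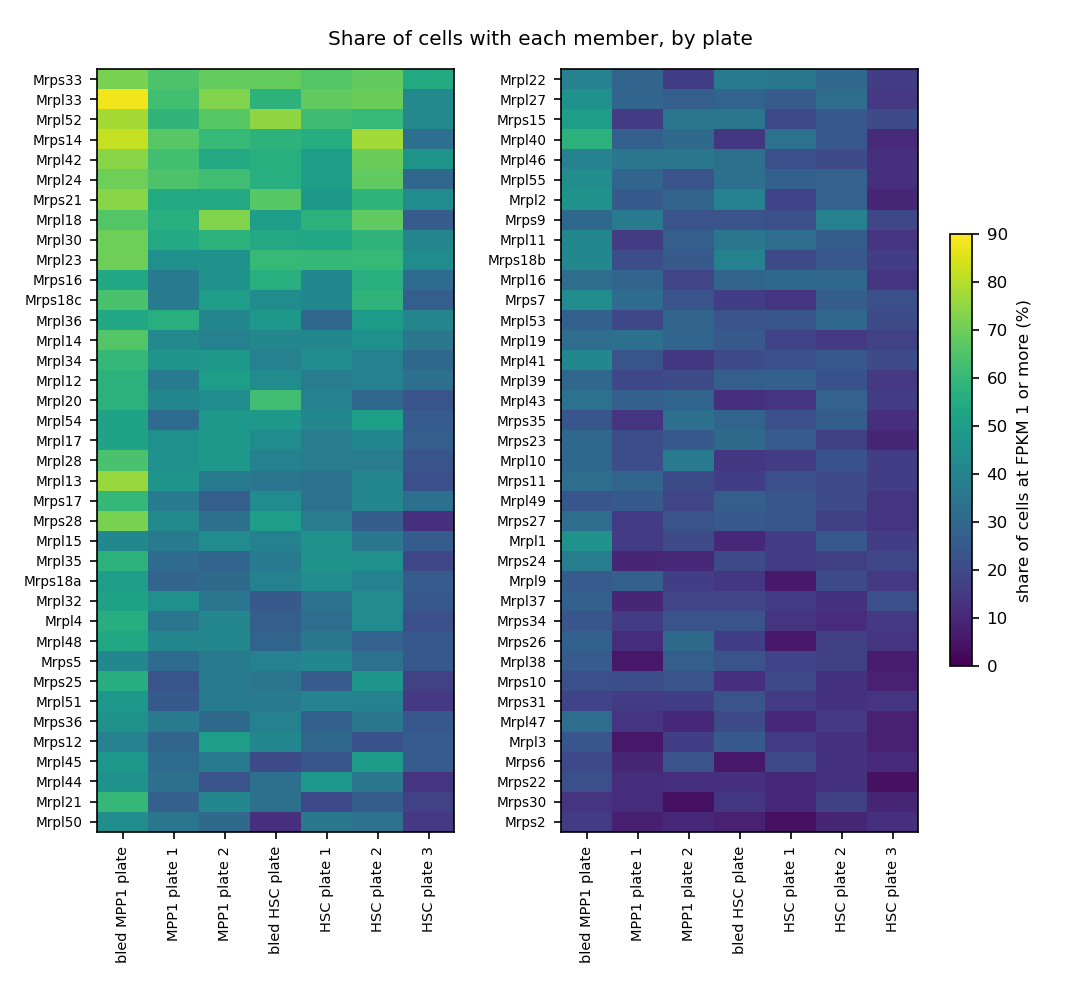
Share of cells (colour, in percent) with each of the 76 members at FPKM 1 or more on each of the 7 plates, members ordered by their mean share from Mrps33 (66.1%) at the upper left to Mrps2 (9.77%) at the lower right. The bled MPP1 column is brighter than the others for most members, and the HSC plate 3 column is darker.

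The 3 paralogs of Mrps18 illustrate the spread within a family. In mammals each takes a different place in the ribosome, Mrps18a in the large subunit and the other two in the small one. Mrps18c was detected in 64.0% of bled MPP1 cells, 37.3% and 50.0% of MPP1 cells, 43.8% of bled HSC cells, and 42.0%, 58.5% and 27.4% of HSC cells. Mrps18a was detected in 50.0%, 29.4% and 31.3%, 39.6%, and 44.0%, 39.6% and 26.0% of cells in the same order. Mrps18b was detected in 42.0%, 21.6% and 25.0%, 39.6%, and 20.0%, 24.5% and 16.4%. On 6 of 7 plates Mrps18c was in the largest share of cells, and on HSC plate 1 Mrps18a was.

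MPP1 was set against HSC within 1 table, plates 1 and 2 of each. No member passed the test (limma on log2 of the plate mean plus 1, Benjamini-Hochberg adjusted p under 0.05 over 9833 genes), and the same test called 1 of all genes, Snora30 (0.0102%). With unadjusted p under 0.05, 1 of 76 members (1.32%) and 6.78% of all genes were found. On simulated data with the spread of these plates, limma recovered 2 of 50 genes changed by 6 on the log2 scale and none of 50 changed by 4, so a count of 0 bounds little. The members' median log2 difference was -0.07, beside -0.04 over all genes, and 31 of 76 members were higher in MPP1. Without HSC plate 1 this median was 0.10, and without HSC plate 2 it was -0.41.

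Some members had plates that did not overlap. Both MPP1 plates lay above both HSC plates for 6 members (7.89%; 15.8% of all genes) and below for 19 members (25.0%; 19.9% of all genes). The member closest to the threshold was Mrpl44, a large-subunit protein with a ribonuclease-like fold, at 57.3 and 15.2 FPKM on the MPP1 plates and 90.3 and 65.7 on the HSC plates. Its log2 difference was -1.34 ± 0.62 (SE, 2 plates each), with an adjusted p of 0.735 by limma. Mrps18b had 20.0 and 18.5 FPKM in MPP1 and 70.6 and 32.2 in HSC (log2 difference -1.27, adjusted p 0.750 by limma). Among members whose plates did not overlap, Mrpl47, Mrpl41, Mrpl37, Mrpl35, Mrpl4 and Mrpl16 were the others with the most negative differences, between -1.76 and -0.96. On the positive side, Mrpl19 had 6.88 and 7.37 FPKM in MPP1 against 1.58 and 2.51 in HSC, a log2 difference of 1.43 (adjusted p 0.823 by limma). Mrps31, Mrpl21, Mrpl34, Mrpl52 and Mrpl32, the other non-overlapping members, had differences between 0.72 and 1.42. None of these can be told from the spread between plates.

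Values taken over all members were compared on the same plates. The summed level averaged 2284 ± 47.2 FPKM per cell in MPP1 and 2478 ± 739 in HSC (SD, n = 2 plates each), with p = 1 in a two-sided exact permutation test. Members detected per cell were 24 ± 1.41 in MPP1 and 25 ± 1.41 in HSC (SD, n = 2 plates each; exact permutation p = 0.667). As a share of total FPKM, members held 0.865% ± 0.0503 in MPP1 and 0.973% ± 0.0545 in HSC (SD, n = 2 plates each; exact permutation p = 0.333). On this last measure both MPP1 plates lay below both HSC plates. With medians over cells in place of means the plates overlapped, at 0.893% and 0.807% in MPP1 and 0.987% and 0.812% in HSC. With 2 plates against 2, 0.333 is the smallest p this test can give, so it cannot decide whether the groups differ.

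Proteins of the mitochondrial ribosome that carry other names were detected in similar shares of cells. Chchd1 and Aurkaip1, small-subunit proteins, averaged 52.4% and 48.5% of cells over the 7 plates, and Mrp63 of the large subunit 37.2%. Dap3, a GTP-binding small-subunit protein first named for cell death, averaged 32.0%, Ptcd3 30.7%, Gadd45gip1 24.2% and Ict1, a peptide-release protein built into the large subunit, 23.2%. None of these 7 genes passed between MPP1 and HSC in either direction (median log2 difference 0.02). Ptcd3 had 13.3 and 26.4 FPKM in MPP1 and 16.0 and 5.25 in HSC, and its plates overlap.

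Other genes of mitochondrial translation were measured in the same fit. No gene passed in either direction among 18 of mitoribosome assembly, 14 translation factors, 15 mitochondrial tRNA synthetases, 10 of mitochondrial DNA and transcription, 25 of import, 8 regulators of mitochondrial biogenesis and 76 oxidative phosphorylation subunits. Their median log2 differences were -0.45, -0.13, 0.59, -0.27, 0.04, 0.21 and -0.02. Genes of the cell cycle did not pass either, with medians of 0.44 for G2/M and 0.32 for S phase. Mrm1, which methylates mitochondrial ribosomal RNA, had 1.42 and 0.00 FPKM in MPP1 and 17.3 and 15.7 in HSC (log2 difference -3.49, adjusted p 0.433 by limma), and Nsun4, another ribosomal RNA methyltransferase, had 1.78 and 1.23 FPKM in MPP1 and 11.9 and 10.3 in HSC.

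Cells of bled mice were laid beside those of normal mice. The bled plates stand in a table of their own, with 1 plate per cell type, so no test was run and the values are a description. Bled HSC was set against HSC plates 1 and 2, and values of HSC plate 3, from a further table, are given beside some of the members named. Bled MPP1 cells held more members than MPP1 cells: 61 of 76 members (80.3%) were detected in a larger share of bled MPP1 cells than on both MPP1 plates, beside 55.4% of all genes, and none was detected in a smaller share than on both, beside 17.2% of all genes. In bled HSC, 32 of 76 members (42.1%; all genes 30.0%) lay above HSC plates 1 and 2 in this share and 22 (28.9%; all genes 32.8%) below both.

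The gain in bled MPP1 was seen in both subunits. Among Mrpl genes 38 of 47 and among Mrps genes 23 of 29 lay above both MPP1 plates, and the median member share was 46.0% in bled MPP1, against 29.4% and 31.3% on the MPP1 plates. Mrpl13, a large-subunit protein, was detected in 76.0% of bled MPP1 cells (95% exact binomial interval 61.8 to 86.9), against 47.1% and 37.5% of MPP1 cells. Mrps28, of the small subunit, was detected in 72.0% of bled MPP1 cells (57.5 to 83.8), against 43.1% and 33.3% of MPP1 cells. Mrps24 was detected in 38.0% of bled MPP1 cells, against 9.80% and 10.4% of MPP1 cells. They are the 3 members with the widest gap to the nearer MPP1 plate, a choice made with the values in view. Binomial intervals cover counting error only. In bled MPP1, 25 of 50 cells had at least 38 of the 76 members (35.5 to 64.5% by the exact binomial interval), against 7 of 51 and 8 of 48 cells on the MPP1 plates.

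Some other gene lists moved with the bled MPP1 plate, and some did not. Import and chaperone genes were in more bled MPP1 cells than on both MPP1 plates for 22 of 25, oxidative phosphorylation subunits for 68 of 76 and translation factors for 11 of 14, while regulators of mitochondrial biogenesis were for 2 of 7. Genes of S phase were above both MPP1 plates in 20 of 21 cases, and genes of G2/M phase in 14 of 24. So were 8 of 10 stem cell markers, 5 of 7 mitoribosome proteins with other names and 10 of 15 glycolysis genes. Over all genes this share was 55.4%, as above. Mitoribosome assembly genes (7 of 17, 41.2%), mitochondrial tRNA synthetases (8 of 16, 50%) and cytosolic ribosomal protein genes (26 of 72, 36.1%) lay under that share. The cytosolic ribosomal protein genes already had median shares of 94.1% and 97.9% on the MPP1 plates. That left little room above both, so their count cannot show whether they moved. Of the assembly genes, 6 of 17 were in fewer bled MPP1 cells than on both MPP1 plates. G2/M genes were detected in a mean of 6.68% of bled HSC cells, against 8.83%, 21.1% and 5.71% on HSC plates 1, 2 and 3, and mitoribosome assembly genes in 10.1% of bled HSC cells, against 11.7%, 14.5% and 7.21%, so both lie within the range of the HSC plates. The part of cell cycle in the member values was not tested.

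The number of genes detected moved with the bled MPP1 difference. The bled MPP1 plate had the most genes detected per cell, 3046.5 against 2535 and 2520.5. Among cells with 2000 to 3000 detected genes, a window chosen after seeing the data, the median was 28 members in bled MPP1 (18 cells), against 23.5 and 23 on MPP1 plates 1 and 2 (30 and 22 cells). The difference in members per cell was thus 4.75 in that window and 13.5 over all cells. In the same window the bled HSC plate had 27 members (33 cells), against 24, 23.5 and 22 on HSC plates 1, 2 and 3 (29, 34 and 33 cells). The part of genes detected in the remaining difference was not tested.

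**Figure D3:**
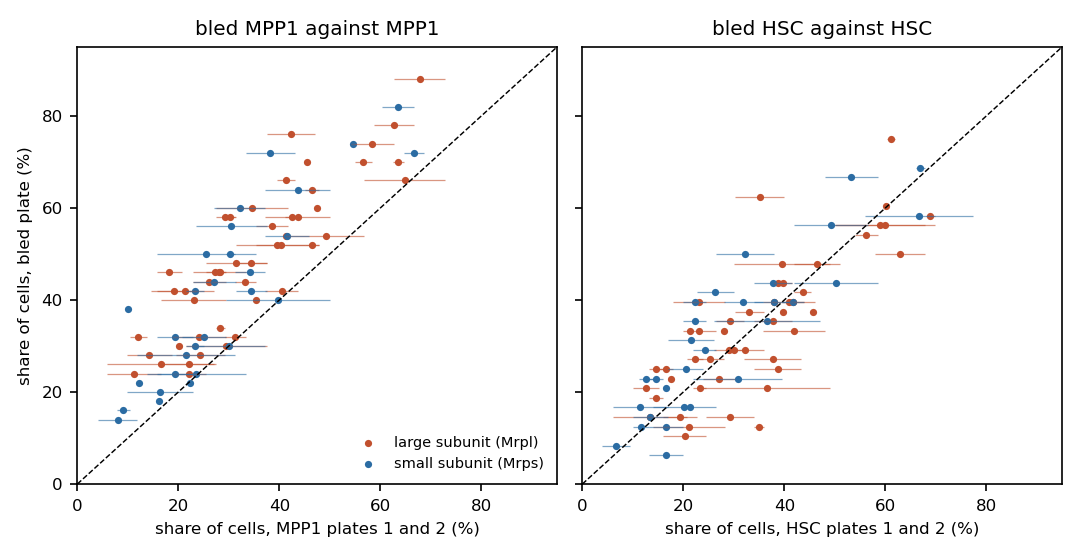
Share of cells with each member on the bled plate (vertical axis, percent) against plates 1 and 2 of the normal cells (horizontal axis, percent; the point is their midpoint and the line joins both plates), for MPP1 (left) and HSC (right); the dashed line marks equal shares, red is Mrpl and blue is Mrps. In MPP1 61 of 76 members lie above both normal plates and none below both; in HSC 32 lie above and 22 below.

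Levels moved less uniformly than shares. The members' median log2 difference was 0.48 in bled MPP1 against MPP1 (all genes 0.07), with 58 of 76 members higher, and 0.22 in bled HSC against HSC (all genes -0.03), with 52 of 76 higher. The bled HSC median depends on the plate it is set against, being 0.58 without HSC plate 1 and -0.04 without HSC plate 2. For oxidative phosphorylation subunits the same medians were 0.51 and 0.41, and for cytosolic ribosomal protein genes 0.10 and 0.48. A level at least 1 above both normal plates on the log2 scale was found for 12 members (15.8%) in bled MPP1, beside 9.79% of all genes, and a level at least 1 below both for none, beside 6.51%. In bled HSC 5 members (6.58%) were above, beside 9.35% of all genes, and 2 (2.63%) below, beside 11.8%. HSC plate 3, from normal mice and yet another table, had a median member difference of -0.04 from HSC plates 1 and 2 (all genes -0.22).

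The 5 members farthest above both normal plates were not the same in the 2 cell types. In bled MPP1, Mrps24 had 12.9 FPKM, against 2.90 and 1.91 in MPP1, and Mrps18b had 68.4 FPKM, against 20.0 and 18.5. Mrpl37 (24.9 FPKM in bled MPP1, against 5.08 and 6.96 in MPP1), Mrps17 (69.1, against 19.1 and 21.2) and Mrpl4 (52.1, against 14.0 and 18.4) completed the 5 farthest above both plates. In bled HSC, Mrpl39 had 66.6 FPKM, against 12.1 and 16.0 in HSC, and Mrpl47 had 43.3 FPKM, against 16.9 and 9.30. Mrps15, Mrpl3 and Mrps21 were the others, with distances to the nearer of HSC plates 1 and 2 between 1.01 and 1.65 on the log2 scale. HSC plate 3 had 19.3 FPKM of Mrpl39 and 1.40 FPKM of Mrpl47. The share of cells with Mrpl39 did not rise with its level, at 27.1% in bled HSC against 28.0% and 22.6% on HSC plates 1 and 2. Mrpl47, Mrps15, Mrpl3 and Mrps21 were in larger shares of bled HSC cells than on both of these plates. Some members rose in both cell types. Mrpl47 also lay 1.40 above the nearer MPP1 plate in bled MPP1, and Mrps18b 0.65 above the nearer of HSC plates 1 and 2 in bled HSC. Mrpl4 went the other way in bled HSC, at -0.67.

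A few members had lower levels on a bled plate. Mrpl45, which in human mitochondria holds the ribosome to the inner membrane, had 5.12 FPKM in bled HSC, against 16.8, 30.2 and 24.9 on HSC plates 1, 2 and 3, and Mrpl50 had 6.81 FPKM, against 25.7, 18.0 and 23.9. Mrpl51, Mrpl4 and Mrpl40 lay 0.98, 0.67 and 0.56 below the nearer of HSC plates 1 and 2 on the log2 scale. HSC plate 3 does not share this: Mrpl51 had 6.00 FPKM in bled HSC and 5.51 on HSC plate 3, Mrpl4 had 18.9 and 19.8, and Mrpl40 had 14.1 and 8.63. In bled MPP1, Mrps31 had 5.89 FPKM, against 20.3 and 11.9 in MPP1, and Mrpl32 had 26.6 FPKM, against 48.3 on both MPP1 plates. Mrpl34, Mrpl43 and Mrpl52 lay 0.56 to 0.70 below the nearer MPP1 plate. All 5 were nevertheless in more bled MPP1 cells than on either MPP1 plate: Mrps31 in 18.0% against 15.7% and 16.7%, Mrpl32 in 52.0% against 45.1% and 35.4%, Mrpl34 in 60.0% against 47.1% and 47.9%, Mrpl43 in 34.0% against 27.5% and 29.2%, and Mrpl52 in 78.0% against 58.8% and 66.7%. With log2 values averaged over cells, the differences of Mrpl32, Mrpl34 and Mrpl52 turned positive, at 0.55, 0.0675 and 0.50.

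Members co-varied only weakly from cell to cell. Between members detected in at least 20% of a plate's cells, the median pairwise Spearman correlation was 0.18 on the bled MPP1 plate (73 members), 0.14 and 0.13 in MPP1 (57 and 63), 0.07 in bled HSC (61), and 0.06, 0.08 and 0.04 on HSC plates 1, 2 and 3 (58, 60 and 36). Over all gene pairs on the same plates it was 0.08, 0.08 and 0.08, 0.03, and 0.03, 0.04 and 0.03. Cytosolic ribosomal protein genes lay between 0.32 and 0.52, and oxidative phosphorylation subunits between 0.09 and 0.29. Given the number of genes detected per cell, the members' partial correlations had plate medians between 0.000653 and 0.0327, and such weak values in sparse data are no finding. Of 465 member pairs measurable on all 7 plates, 78 were positive on each; Mrpl42 with Mrps16 had the highest median, 0.38, but ranged from -0.11 to 0.45, while Mrpl18 with Mrpl20 ranged from 0.19 to 0.44.

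In bulk, members were detected most in progenitors of red cells and granulocytes. Of 75 members, 50 were detected in GMP-7 (a gate of granulocyte-macrophage progenitors), 43 each in CMP, GMP-11 and PreCFU-E, 42 each in CFU-E and ProEry, 36 in MEP, 27 each in MPP1, MPP2 and MPP4, 25 in MPP3, 21 in preGM, 20 in MKP, 19 each in CLP and preMegE, 13 in CLP Sca1 high, 3 in Mature Meg and 18 in HSC. These counts followed the genes detected per library, which were 6080 in GMP-7, 1642 in Mature Meg and 2866 in HSC (Spearman correlation 0.81 over 18 libraries). Per 1000 detected genes, CFU-E had 9.16 members, MEP 9.13, ProEry 8.57, GMP-7 8.22, MPP1 7.96, CLP 4.35, CLP Sca1 high 3.59, Mature Meg 1.83 and HSC 6.28. In bulk libraries fewer cells of a type and less RNA per cell cannot be told apart, and with 1 library each there is no replicate check.

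**Figure D4:**
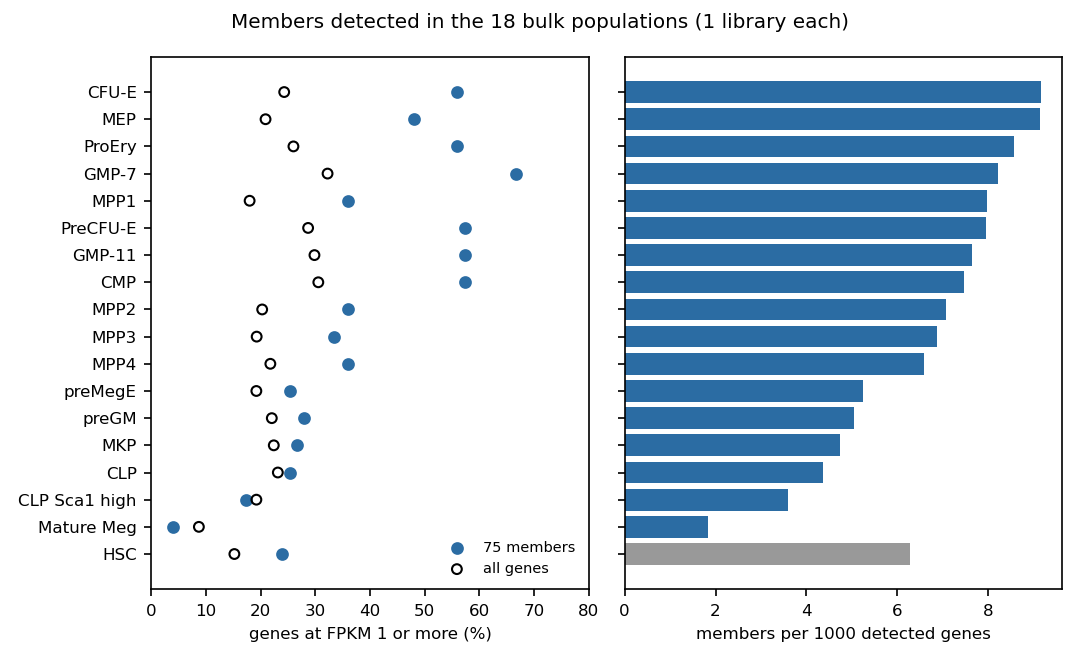
Left, percent of the 75 members (filled) and of all 18855 genes (open) at FPKM 1 or more in each bulk population; right, members per 1000 detected genes, with HSC (grey) at the bottom and the other populations ordered by this value. CFU-E (9.16) and MEP (9.13) are highest and Mature Meg (1.83) is lowest.

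Labels of the bulk populations were checked against marker genes. Summed erythroid markers were highest in ProEry (2047 FPKM) and granulocyte-monocyte markers in GMP-11 (1686 FPKM). Mature Meg had 48.6 FPKM of megakaryocyte markers (MKP 130, HSC 33.0) and 1106 FPKM of macrophage markers. CLP Sca1 high had 20.6 FPKM of lymphoid progenitor markers (CLP 2235) and 897 FPKM of B and plasma cell markers. Both thus held markers of cell types that their labels do not name, and the lymphoid progenitor markers of CLP Sca1 high go against its label. Bulk MPP1 had 1659 FPKM of stem cell markers, MPP4 779, preMegE 694, CMP 477 and bulk HSC 334 FPKM. The bulk HSC library was thus not the highest in the markers of its own label. The part of these markers in the member counts was not tested.

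Set against bulk HSC, the share of members past 2-fold higher exceeded that of all genes by the most in PreCFU-E, GMP-7, ProEry, CFU-E, MEP and MPP1. Over the 43 members that averaged FPKM 1 or more (32 did not), 31 (72.1%) were at least 2-fold higher in PreCFU-E, where 51.0% of 6824 genes were. The counts were 30 (69.8%) in GMP-7 with 57.9% of genes, 27 (62.8%) in ProEry with 46.5%, 23 (53.5%) in CFU-E with 43.7%, 23 (53.5%) in MEP with 36.5%, and 17 (39.5%) in MPP1 with 24.8%. CMP had 26 (60.5%) with 53.3%, GMP-11 25 (58.1%) with 53.8%, MPP2 15 (34.9%) with 33.3% and MPP3 14 (32.6%) with 32.0%. MPP4 had 15 (34.9%) with 35.7%, preGM 13 (30.2%) with 36.9% and preMegE 11 (25.6%) with 30.6%. In these populations the shares differed less, in either direction. The members' share was smaller by a wider gap in CLP, with 10 (23.3%) and 37.6% of genes, and CLP Sca1 high, with 7 (16.3%) and 28.7%. The same held in MKP, with 12 (27.9%) and 37.2%, and Mature Meg, with 2 (4.65%) and 13.1%. Populations were grouped with these values in view, and no test was run. At least 2-fold lower were 5 members in PreCFU-E (12.3% of genes), 1 in GMP-7 (10.3%), 5 in ProEry (14.4%), 3 in CFU-E (15.6%), 5 in MEP (17.6%), 5 in MPP1 (17.1%), 6 in CLP (16.1%), 8 in CLP Sca1 high (19.8%), 6 in MKP (16.2%) and 13 in Mature Meg (28.4%). The same counts were 4 in CMP (10.4%), 4 in GMP-11 (11.3%), 8 in MPP2 (16.7%), 5 in MPP3 (17.4%), 6 in MPP4 (15.7%), 7 in preGM (15.4%) and 6 in preMegE (18.1%). All 17 comparisons share the same HSC library, whose summed stem cell markers lay below those of MPP1, MPP4, preMegE and CMP.

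Centred on the mean of the 18 populations, the members' median log2 level was 1.13 in GMP-7 (all genes 0.64), 0.83 in PreCFU-E (0.34), 0.52 in ProEry (0.11), 0.34 in CFU-E (-0.09) and -0.96 in HSC (-0.85). These 4 progenitor gates were the ones in which the members' median lay above that of all genes under all 6 settings of pseudocount, filter and scale. In CLP it lay below under all 6, at -0.58 against -0.36 for all genes. For the other 13 populations the sign of the difference changed with the setting.

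Single genes made up most of the summed level in some bulk populations and little in others. The highest member held 81.0% of the sum in MPP4, 75.9% in MKP, 72.3% in CLP Sca1 high and 64.5% in preGM, against 20.1% in GMP-11, 10.5% in GMP-7 and 10.2% in CMP, and 41.9% in HSC. Mrps7, a small-subunit protein that binds ribosomal RNA in its bacterial relative, was listed at 699 FPKM in MKP and 294 in preGM, with a median of 12.5 over the 18 populations and 0.17 FPKM in HSC. Its transcript overlaps Gga3 and Mif4gd on the other strand, which were at 0.04 and 0.06 FPKM in MKP. Mrps30 was at 420 FPKM in MPP4 and 187 in CLP Sca1 high, with a median of 26.9 and 0.07 FPKM in HSC. The summed member level was therefore 921 FPKM in MKP and 518 in MPP4, and 192 and 94.9 without these 2 genes, against 115 in HSC, which stayed at 115.

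The other high members were highest in different populations. Mrpl9 was at 69.7 FPKM in MPP1, and next at 25.1 in ProEry, and Mrpl4 was at 48.3 FPKM in HSC, and next at 25.4 in CFU-E. Mrpl38 reached 60.3 FPKM in preMegE and 57.7 in MPP3, Mrps2 50.5 in MKP and 38.3 in ProEry, and Mrpl15 33.6 in MEP and 27.9 in MKP. Mrps15 and Mrpl36 were spread more evenly, Mrps15 at 36.4 in CLP, 33.3 in GMP-7 and 28.8 in CMP, and Mrpl36 at 22.6 in MEP, 20.2 in MPP2 and 19.0 in GMP-11. No member was detected in all 18 populations, Mrpl36 and Mrpl3 were detected in 17, and 6 (Mrpl22, Mrpl23, Mrpl32, Mrpl41, Mrpl48 and Mrps18c) in none.

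The order of populations was shared by some members. Over the 18 populations, the Spearman correlation with the mean of the other members was highest for Mrpl18 (0.86), Mrpl20 (0.82), Mrps2 (0.78), Mrps28 (0.77) and Mrpl3 (0.74), and lowest for Mrpl33 (0.18), Mrpl9 (0.25), Mrpl50 (0.28), Mrps26 (0.29) and Mrps30 (0.29). Among 2431 other genes averaging FPKM 10 or more, those most like the mean member profile included Slc25a5 (an ADP/ATP carrier of the inner membrane, 0.88), Eif3g (a cytosolic initiation factor, 0.87), Ddx1 and Ndufs1 (0.86 each), Pus7, Trmt6 and Rpl7a (0.86 each). The mean member profile correlated with the number of genes detected per library at 0.84.

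Cells and bulk libraries ranked the members differently. Mrps18c, with 98.7 FPKM on average over the plates, reached at most 0.22 FPKM in any bulk population, and Mrps33, the most widely detected member in cells, reached at most 3.04 FPKM. Over the 75 members in both assays the Spearman correlation of mean levels was -0.12, beside 0.30 over 8108 genes averaging FPKM 1 or more on HSC and MPP1 plates 1 and 2. Transcript length was taken from the GENCODE vM21 transcript of each gene's RefSeq accession. The 25 shortest members (405 to 995 bases) had a median of 42.7 FPKM in cells and 0.77 in bulk, the next 25 had 24.4 and 1.87, and the 25 longest (1708 to 7300 bases) 12.7 and 1.99. Genes at large in the same length ranges had medians of 31.8, 16.2 and 7.87 FPKM in cells and 0.78, 1.46 and 3.29 in bulk. Lengths correlated with the members' levels at -0.46 in cells and 0.21 in bulk, and at -0.32 and 0.17 over all 8108 genes. The direction with length was the same for members and for genes at large. Genes at large were spread unevenly over the length ranges, with 563, 1075 and 6050 genes, against 25 members in each. The part of length, amplification protocol and estimation in the members' ranking was not tested.

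**Figure D5:**
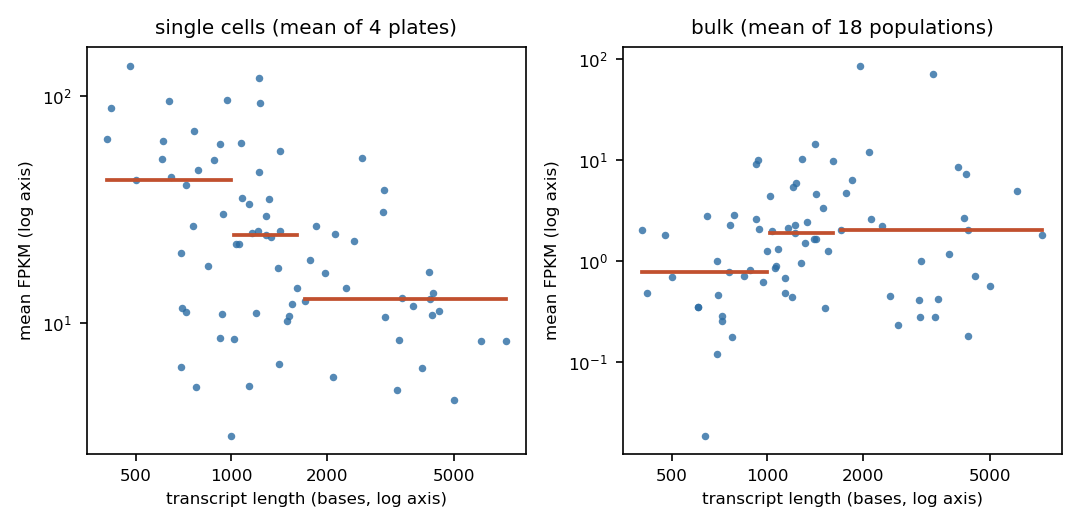
Mean FPKM of each of the 75 members (log axis) against transcript length in bases (log axis), in single cells over HSC and MPP1 plates 1 and 2 (left) and over the 18 bulk populations (right); red lines are medians of the 25 shortest, the middle 25 and the 25 longest members. The medians fall with length in cells, 42.7, 24.4 and 12.7 FPKM, and rise in bulk, 0.77, 1.87 and 1.99 FPKM.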

How the data were processed

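The authors deposited FPKM values; per the submitters' processing notes the tools were TopHat 1.3.3 and Cufflinks 1.2.1 with build mm9, and also Bowtie2 2.2.1 for HSC plate 3. Columns without a suffix were read as plate 1, and those marked v2 as plate 2. The 96 repeat-run samples of HSC plate 1 were not analysed as such, and its columns could hold either run. HSC plates 1 and 2 and both MPP1 plates share a table; the others were made separately, so that tests stayed within that table. Read depth is unknown: low values of 105 well pairs showed no shared step (at most 10.5% of ratios in 1 window of 1 percent). No well columns were identical.

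The plate was the replicate. Where labels do not say whether plates are separate mice, p-values measure the spread between plates. Genes averaging FPKM 1 or more were tested with limma 3.58.1 in R 4.3.3 on log2(mean FPKM over cells + 1), which understates changes of low genes; limma was tested on simulated data. Shares have Clopper-Pearson 95% intervals. Strand use is not given in the sources used here, so that 23 members whose exons overlap another gene in GENCODE vM21, 20 of them only on the opposite strand, are uncertain, as are members with pseudogene copies. The members, gene lists, naming rule (largest differences, highest and lowest levels, widest ranges) and tests were chosen with earlier results of these data known. A few genes that the naming rule would give are not reported here.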

Additional observations from a re-analysis of the deposited data

Results flagged for a closer look

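For 5 members the bled plate lay outside normal plates 1 and 2 in opposite directions in the 2 cell types. With 1 bled plate per cell type, in a table of its own, these differences were not tested. The values are distances to the nearer normal plate on the log2 scale. Mrpl4 was at 1.45 in bled MPP1 and -0.67 in bled HSC. Mrpl40 was at 0.93 in bled MPP1 and -0.56 in bled HSC. The other 3 ran the opposite way: Mrps31 was at -0.90 in bled MPP1 and 0.83 in bled HSC, Mrpl32 at -0.83 and 0.36, and Mrpl52 at -0.56 and 0.12 in the same order. Against HSC plate 3, which stands in a further table, the bled HSC level of Mrpl40 was higher (14.1 FPKM in bled HSC and 8.63 on HSC plate 3) and that of Mrpl52 lower (91.4 and 99.2 FPKM), so these bled HSC values lie within the range of the 3 HSC plates. Mrpl4 lay close to HSC plate 3 (18.9 and 19.8 FPKM), while Mrps31 and Mrpl32 in bled HSC lay above it. With log2 values averaged over cells, the bled MPP1 differences of Mrpl32 and Mrpl52 turned positive, and so no longer ran opposite to their bled HSC values given here.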

How the results depend on the processing

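No alternative changed the count of 0 members called between MPP1 and HSC. That includes the fit with plate number as a replicate block, where limma called 58 of 9833 genes in place of 1 and 2 members had an unadjusted p under 0.05. Deviations of same-numbered plates from their group means correlated at 0.04 over genes. With 2 plates per group both plate numbers give the same value, so it cannot decide whether the numbers pair the plates. Leaving out each plate in turn gave median member differences between -0.41 and 0.10 for MPP1 against HSC, between -0.0368 and 0.58 for bled HSC against HSC and between 0.42 and 0.58 for bled MPP1 against MPP1. The summed level of MPP1 minus HSC ranged from -715 to 329 FPKM when a plate was left out, from a main value of -193, and members per cell from -2 to 0. Members per cell, MPP1 minus HSC, were -1, and became 0 at a detection threshold of FPKM 5 and 2 in cells of at least 2000 genes. For bled MPP1 the gain in members per cell of 13.5 was 10.5 in cells of at least 2000 genes and 4.75 in cells of 2000 to 3000 genes, and for bled HSC the gain of 1 was 3.25 in that window. The mean over plates of the median member correlation was 0.0997, and 0.0168 given genes detected. Bulk medians scale with the pseudocount: GMP-7, HSC and Mature Meg had 1.13, -0.96 and -1.18, then 1.90, -1.65 and -3.03 with 0.1, 0.28, -0.21 and -0.25 with 10, and 0.69, -0.45 and -0.75 with no filter. A filter at FPKM 5 gave -1.86 in HSC and -2.62 in Mature Meg. With log2 values averaged over cells, the difference of Mrpl32 was -0.00212 between MPP1 and HSC, and in bled MPP1 those of Mrpl32, Mrpl34 and Mrpl52 became 0.55, 0.0675 and 0.50. The causes of these shifts were not tested. Unknown read depth means that a member at 0 in a cell cannot be told from one missed.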
